A study of Homo sapiens with 6 samples.

Results

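The genes described here carried little signal at the promoter relative to the gene body in PRO-seq of SBC-3 cells. They were chosen by their own measured values. For each gene, the deposited signal in 500 bins was averaged over all 6 libraries, P was the mean of bin101 and bin102 at the start of the gene, and B was the mean of bin104 to bin400 over the gene body. Genes with B of 5 or more and P/B of 2 or less were kept, which gave 3529 members among the 16835 genes with B of 5 or more (21.0%), and among 51974 genes in all. The other 13306 genes with B of 5 or more are called the other expressed genes. P, B and P/B are therefore descriptions of the choice, not results.

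PRO-seq reads the nascent RNA that engaged polymerases extend once cells are permeabilized, so its signal marks where polymerases are, not how much RNA has accumulated. SBC-3 is a human small cell lung cancer cell line, labelled wild type. Cells were reverse transfected with siSFPQ-2 or siSFPQ-3, which are 2 siRNAs against SFPQ, or with the control siRNA siCtrl, each at 10 nM, and were harvested 72 h later. There were n = 2 libraries per group, so 4 siSFPQ and 2 siCtrl libraries. SFPQ is a nuclear protein that binds RNA and DNA and is a part of paraspeckles. The comparison addresses how depletion of SFPQ changes nascent transcription.

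At most active genes, RNA polymerase II starts and then halts a short way into the gene, held by the factors NELF and DSIF until the kinase P-TEFb releases it. The result is a sharp peak of engaged polymerase at the promoter, followed by a lower level through the gene body. Genes with little such pausing include replication-dependent histone genes in many cell types, and TATA boxes and promoters poor in CpG have been linked to weak pausing. A low ratio can also be read at a gene that lies in the transcription of a neighbour, or whose annotated start is not the one in use.

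The recovered depth was 12072813 to 18475158 reads per library. Of 13 markers of small cell lung cancer and its subtypes, 10 had a feature in the table of normalized reads and 9 reached 10 normalized reads; the marker of one subtype, YAP1, reached 5431, and the neuroendocrine marker CHGA stayed at or below 5.54. The summed epithelial list was at 3102 to 4156 normalized reads in siSFPQ libraries, against 1117 and 1216 in siCtrl libraries, and the summed fibroblast list at 4974 to 5819 in siSFPQ libraries, against 4000 and 4052 in siCtrl libraries. Their genes did not move alike: KRT8 was at 1931 to 2455 in siSFPQ libraries, against 787 to 887 in siCtrl libraries, CLDN7 at 32.1 to 47.3, against 72.5 to 73.1, and SPARC at 881 to 1206, against 1520 to 1547. The part of these lists in the results below was not tested. None of 4 endothelial markers had a feature. Nothing in the labels ties the libraries of a group to separate cultures, and p-values then cover only the spread between these libraries, which may be technical. SFPQ itself, not a member (P/B 4.13), had 1825 and 1972 normalized reads in siSFPQ-2 libraries, 1922 and 2466 in siSFPQ-3 libraries, and 2294 and 2435 in siCtrl libraries (log2 fold change -0.22, limma adjusted p = 0.137). An siRNA acts on the finished RNA, so nascent reads of SFPQ do not measure the knockdown, and the values of the groups overlapped.

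The first sequences show what lies before the start of members and of genes with a high P/B. Each is the 60 bases before the start of the gene's first RefSeq promoter entry, on the gene's strand (GRCh38.p14), 5′ to 3′, with TATAAA in capitals where it lies between 45 and 20 bases before the start. None of the 10 members with a symbol and the highest B had a promoter in the RefSeq table, so the first 4 members by B that had one are shown, leaving out genes with a LINC number.
BRD2 (chr6:32968534-32968593, + strand): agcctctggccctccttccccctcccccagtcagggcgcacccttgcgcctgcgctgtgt
CXCL1 (chr4:73869333-73869392, + strand): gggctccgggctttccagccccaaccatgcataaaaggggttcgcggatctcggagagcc
SOX2-OT (chr3:181056620-181056679, + strand): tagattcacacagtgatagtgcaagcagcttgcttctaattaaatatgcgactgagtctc
H4C12 (chr6:27831561-27831620, - strand): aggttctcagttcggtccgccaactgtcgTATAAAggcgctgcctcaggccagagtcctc
Of the other expressed genes with a symbol and a promoter entry the 4 with the highest P/B (up to 722 for DNAJC25) had no TATAAA in that window. The entry shown for FKBP1B starts inside the span of that gene.
DNAJC25 (chr9:111631274-111631333, + strand): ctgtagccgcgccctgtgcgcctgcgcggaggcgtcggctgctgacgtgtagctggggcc
GCC2-AS1 (chr2:108534220-108534279, - strand): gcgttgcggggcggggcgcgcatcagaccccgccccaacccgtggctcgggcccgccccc
FKBP1B (chr2:24049681-24049740, + strand): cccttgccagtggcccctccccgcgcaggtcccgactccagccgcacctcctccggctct
FZD4 (chr11:86955396-86955455, - strand): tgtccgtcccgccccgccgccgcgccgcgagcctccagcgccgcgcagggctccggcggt
A further 4 members were picked after their values were seen, because their reads changed with siSFPQ.
CXCL8 (chr4:73740509-73740568, + strand): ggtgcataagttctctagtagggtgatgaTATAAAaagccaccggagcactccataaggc
IL6 (chr7:22727140-22727199, + strand): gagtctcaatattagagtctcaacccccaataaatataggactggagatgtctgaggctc
NR5A2 (chr1:200027650-200027709, + strand): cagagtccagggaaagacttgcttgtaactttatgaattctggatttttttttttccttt
KRT28 (chr17:40799960-40800019, - strand): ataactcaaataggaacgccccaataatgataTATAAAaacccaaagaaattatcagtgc

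Promoters of the members were poorer in CpG than those of the other expressed genes. A RefSeq promoter of 300 bases, from 250 before to 50 after the start, was found for 997 members and 9969 other expressed genes; where a gene had several entries the first was used. The median number of CG dinucleotides was 11 in members (quartiles 5 and 25) and 27 in the other expressed genes (19 and 35). The median GC content was 60% in members and 65.3% in the other expressed genes. Among the sequences shown, NR5A2 had 0 CG dinucleotides in its 300 bases and IL6 had 7, against 40 in FZD4 and 38 in GCC2-AS1.

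TATAAA in the window 45 to 20 bases before the start was found in 46 of 997 member promoters (4.61%), in 156 of 9969 promoters of the other expressed genes (1.56%), and in 2.58% of all 27305 RefSeq promoters. Anywhere in the 300 bases on either strand, TATAAA was found in 11.8% of member promoters, 5.18% of those of the other expressed genes and 11.95% of all. Histone genes supplied 15 of the 46, and without them 28 of 608 protein-coding members (4.61%) held it in the window. Among lncRNA members, 3 of 357 held it in the window (0.840%). These counts describe letters in a window and carry no test, and the start sites used for the deposited profiles may differ from those of RefSeq.

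Long non-coding RNAs and pseudogenes made up most of the members. Of the members, 1775 were lncRNA genes (50.3%), 1011 protein-coding genes (28.6%) and 742 pseudogenes of any kind (21.0%), and the 1 left was labelled an artifact. The shares within the gene classes ran from 8.21% of 12311 expressed protein-coding genes through 50.5% of 3515 lncRNA genes to 73.9% of 1004 pseudogenes, and 82.4% of 631 processed pseudogenes. The ratio of protein-coding genes was most often near 16 to 20, whereas that of lncRNA genes and pseudogenes was most often just over 1. P was 0 in all libraries for 126 members.

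**Figure D1:**
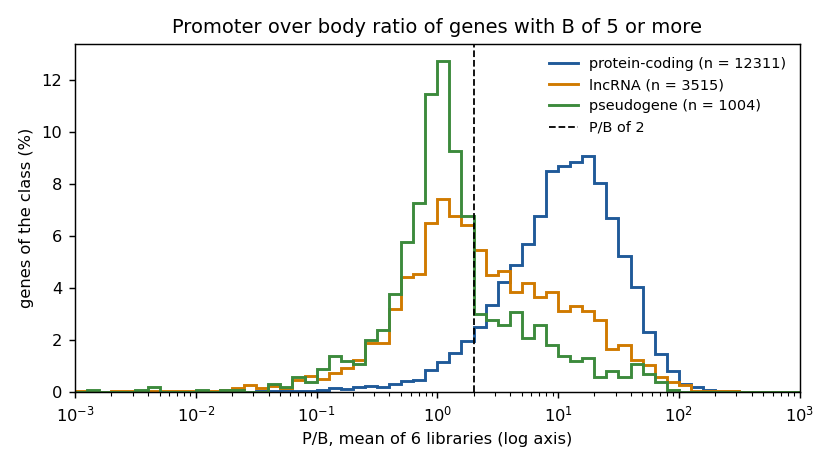
Distribution of P/B (x axis, log scale, mean of 6 libraries) over expressed genes in each gene class, as a percentage of the class (y axis); genes with P of 0 are not drawn. The lncRNA genes and pseudogenes pile up left of the dashed line at 2, and most protein-coding genes lie right of it.

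Short genes were members far more often than genes of middle length. A RefSeq span was matched for 1906 members and 12317 other expressed genes, with a median length of 4184 bases in members and 27075 in the other expressed genes. The share of members was 74.6% of genes under 1 kb, 42.1% at 1 to 3 kb, 17.5% at 3 to 10 kb, 8.25% at 10 to 30 kb and 4.56% at 30 to 100 kb, and 9.51% over 300 kb. The bins over a gene scale with its length, so the 2 promoter bins of a gene under 1 kb covered few bases (a median of 2.02 bases per bin). Among the bins of the gene itself, the highest median signal of protein-coding genes was in bin101 over 10 kb, bin105 at 1 to 3 kb and bin120 under 1 kb, so the window of P missed the highest signal of the shortest genes. In genes over 100 kb the last bin before the gene was higher still. Taking P as the highest of bin101 to bin110, with B from bin111, left 2795 members, 2786 of them among the 3529, whereas P as the mean of bin101 to bin110, with B from bin111, gave 3998, with 3231 among the 3529.

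**Figure D2:**
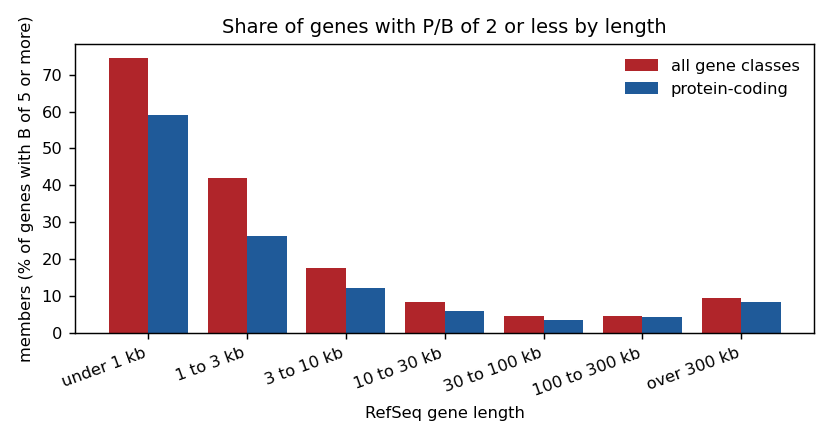
Share of expressed genes with P/B of 2 or less (y axis, %) by RefSeq gene length class (x axis), for all gene classes and for protein-coding genes alone. The share falls from 74.6% under 1 kb to 4.56% at 30 to 100 kb and is 9.51% over 300 kb.

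Members differed widely in the signal before their start. The ratio U/B sets the mean of the 100 bins before the gene against B. It was under 0.1 in 442 members (12.5%), so that the mean signal before the gene was low against that in it. It lay between 0.5 and 2 in 2071 members (58.7%) and in 5806 other expressed genes (43.6%), so that the mean signal before the gene was within 2-fold of that in it. U/B was under 0.1 in 1.13% of the other expressed genes, whose promoter peaks also spread into the bins before the start (median U/B 1.85, against 0.74 in members). The sources used here do not say whether the profiles were split by strand. Past the end of the gene, the median ratio to B was 0.68 in members and 0.84 in the other expressed genes, and the ratio of late body signal (bin301 to bin400) to early body signal (bin104 to bin200) had a median of 0.78 in members and 0.55 in the other expressed genes.

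**Figure D3:**
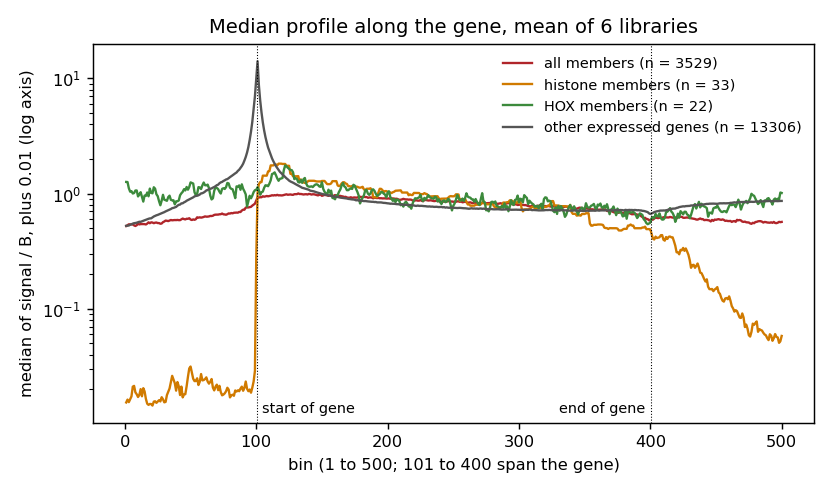
Median signal divided by B (y axis, log scale, 0.01 added) along 500 bins (x axis), for all members, the histone and HOX members and the other expressed genes. The other expressed genes reach 14.1 at bin101, all members stay at or below 0.99, and histone members jump at the start from near 0 while HOX members are near 1 on both sides of it.

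Neighbouring genes lay across more members than across other genes. Strand was known for the 997 members and 9969 other expressed genes with a promoter entry. The start lay inside a longer RefSeq gene for 306 members (30.7%) and 1161 other expressed genes (11.6%). For lncRNA members it did so in 183 of 357 (51.3%), with 145 in genes on the opposite strand (40.6%), against 31.4% of 781 other lncRNA genes, 26.2% on the opposite strand. The start lay within 5 kb after the end of a gene on the same strand for 153 of 637 protein-coding members (24.0%), against 13.7% of 9183 other protein-coding genes.

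Most members among the replication-dependent histone genes, which encode the histones that package new DNA in S phase, had little signal before the gene. Of 65 with B of 5 or more, 33 were members, and U/B was under 0.1 in 27 of these. It was under 0.1 in 14 of the 32 other histones too, whose median P/B was 3.53. The median profile of histone members was highest in bin117, at 1.81 times B, outside the window of P. H4C12 (chr6:27831174-27831560) had P of 2524 and B of 1434, a ratio of 1.76, with U/B of 0.0084. H1-5, a linker histone gene (chr6:27866792-27867588), had P/B of 0.995 and U/B of 0.0033. TATAAA lay in the window of 15 of 29 histone members with a promoter entry and of 17 of 29 other histones. Histone genes have near-identical copies, so the values of single genes are uncertain.

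HOX genes, which set position along the body axis and sit in dense clusters, carried signal on both sides of the start. Of 30 expressed HOX genes, 22 were members, with a median P/B of 1.07 and a median U/B of 1.09, and none had U/B under 0.1. HOXB2 had P/B of 0.43 and U/B of 0.70, HOXB6 1.26 and 0.57, and HOXB8 0.80 and 0.48. The antisense transcripts HOXA-AS2 and HOXB-AS1 of these clusters were members too, with U/B of 0.99 and 0.94.

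The share of members varied between other named groups, against 8.21% of expressed protein-coding genes and 21.0% of all expressed genes. None of 98 ribosomal protein genes, 31 pausing and elongation factors or 5 DBHS and paraspeckle genes was a member, and 9 of 409 zinc finger genes named ZNF and 2 of 76 MRPL and MRPS genes were (MRPL51 and MRPL41, of the mitochondrial ribosome). Of 32 immediate early genes IER2 and IER3 were members (6.25%), and of 13 heat shock genes HSPB1 and HSPA1A (15.4%), with P/B of 0.22 and 0.25. The median ratio of late to early body signal was 2.66 in these immediate early members and 3.45 in these heat shock members, against 0.78 in all members. The median ratio of signal past the end to B was 3.44 in the immediate early members and 0.72 in the heat shock members. Readthrough genes, which join a pair of neighbours, gave 13 of 86 (15.1%). The ratio of late to early body signal was 4.2 for ATP6V1G2-DDX39B and 8.3 for SENP3-EIF4A1, so their signal was higher late in the annotated span.

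Most of the members with a symbol and the highest B were copies of mitochondrial genes. Of 69 expressed nuclear copies, 65 were members, a class formed after the values were seen, and 8 of the 10 members with a symbol and the highest B were among them (MTND2P28 had B of 7658 and MTATP6P1 of 6146). HNRNPA1, which encodes an RNA-binding protein, had B of 10156 and P/B of 1.83. Reads of the mitochondrial genome can match such copies, so their source is uncertain. PCBD2, a member (chr5:134905131-134962644), spans 6 of these copies, and 10 bins held 34.5% of its body signal. In 135 members (3.83%) 10 bins held at least 50% of the body signal, and in 529 members P was more than 2 times the median, rather than the mean, of the body bins.

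The members with the most normalized reads were 2 lncRNA genes with no symbol in the files. ENSG00000280441 had 672926 and 981892 normalized reads in siSFPQ-2 libraries, 741517 and 1410642 in siSFPQ-3 libraries, and 1491918 and 967026 in siCtrl libraries. ENSG00000278996 had 339588 and 498798 in siSFPQ-2 libraries, 374976 and 708654 in siSFPQ-3 libraries, and 750513 and 489450 in siCtrl libraries. For both, the values of the groups overlapped.

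Just inside the threshold were STRA6, SCT, PRKAG2-AS1, MCTP2 and TNNT2, and just outside it MUS81, PRORP, FAM131B-AS2, LCN2 and ARHGAP45, all with P/B of 2.00 or 2.01. P/B was 2 or less in each of the 6 libraries for 2112 members (59.8%) and in at least 4 libraries for 3335. The median P/B of members was 0.85 and 0.82 in siSFPQ-2 libraries, 0.79 and 0.85 in siSFPQ-3 libraries, and 0.83 and 0.71 in siCtrl libraries.

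Reads of members changed with siSFPQ in both directions. Normalized reads were tested with limma as log2(value + 1), a scale on which changes of genes with few reads come out too small. Benjamini-Hochberg adjustment ran over all 21773 features, with a threshold of 0.05. Of 2887 members tested, 1337 passed (46.3%), against 51.4% of the other expressed genes and 48% of all features. Of members, 587 rose (20.3%) and 750 fell (26%), against 24.8% and 23.2% of all features. The median log2 fold change was -0.09 in members and -0.02 in the other expressed genes. Changes of at least 2-fold were called in 303 members rising (10.5%) and in 255 falling (8.83%), against 6.85% and 3.52% of the other expressed genes. The median B was 12.6 in members and 37.8 in the other expressed genes, and its part in the 2-fold counts was not tested. The rule averaged all libraries, of which 4 of 6 were siSFPQ, so a gene raised by siSFPQ reached B of 5 more easily. Without siCtrl replicate 1 the counts were 437 higher and 379 lower, and without siCtrl replicate 2 they were 408 higher and 414 lower.

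Each siRNA alone gave counts of the same order, with siCtrl libraries shared. With siSFPQ-2, 500 members rose and 575 fell (37.2% called, against 39.2% of all features, of which 21.2% rose and 17.9% fell). With siSFPQ-3, 540 rose and 697 fell (42.8%, against 43.4% of all features, of which 23% rose and 20.4% fell). Between siSFPQ-3 and siSFPQ-2, 1 member passed (0.0346%, against 0.101% of all features, 0.0781% higher and 0.023% lower), INPP4B, which encodes a lipid phosphatase. It was named after its values were seen. INPP4B had 1710 and 1728 normalized reads in siSFPQ-3 libraries, 930 and 1028 in siSFPQ-2 libraries and 159 and 185 in siCtrl libraries. The siSFPQ-3 libraries were above the siSFPQ-2 libraries, and both were above siCtrl.

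Nearly all histone members fell. Of 33 tested, 29 fell and 0 rose (median log2 fold change -0.996), against 23.2% of all features falling. At an unadjusted p under 0.05, limma also gave 29 lower. Of 32 other histones, 28 fell (median -0.91). H4C12 had 1358 and 1128 normalized reads in siSFPQ-2 libraries, 1429 and 1241 in siSFPQ-3 libraries, and 2540 and 2125 in siCtrl libraries (log2 fold change -0.85 ± 0.12 SE, limma adjusted p = 0.000209). H1-5 had 1628 and 762 in siSFPQ-2 libraries, 1992 and 917 in siSFPQ-3 libraries, and 4159 and 3147 in siCtrl libraries (-1.56 ± 0.32 SE, adjusted p = 0.0023). In both genes every siSFPQ library was below both siCtrl libraries. H1-4 fell by 0.49 on the log2 scale (adjusted p = 0.0332), a call that was lost without siCtrl replicate 1. Without siCtrl replicate 1 or 2, 22 and 23 histone members fell and 0 rose.

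**Figure D4:**
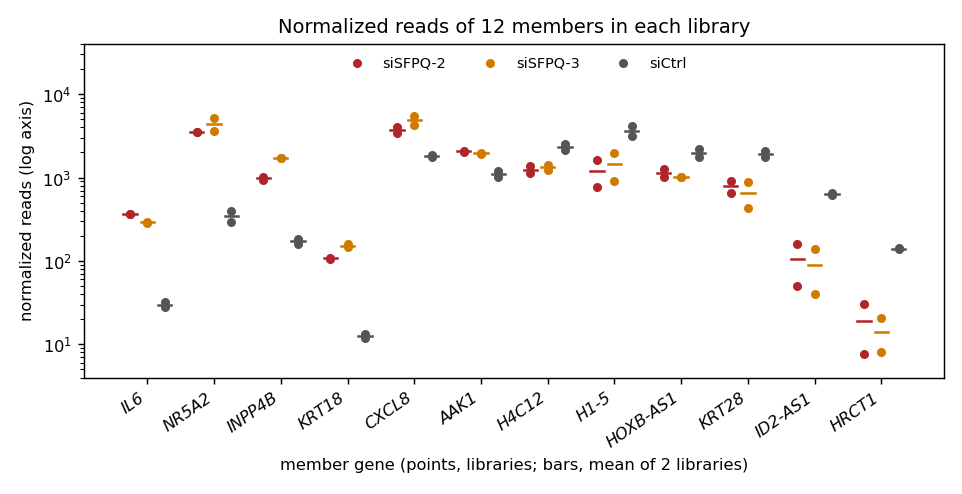
Normalized reads (y axis, log scale) of 12 members in each library, with siSFPQ-2 and siSFPQ-3 left of siCtrl; points are libraries and bars are means of 2 libraries. The siSFPQ points lie above both siCtrl points for the first 6 genes and below both for the last 6. The genes were picked with their values known, some of them named by a rule that required this separation. Among tested members, all siSFPQ libraries were above both siCtrl libraries in 25.6% and below both in 34.3%, against 31.9% and 33.0% of the other expressed genes.

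Cytokine and interferon genes among the members were mostly higher; these classes were formed after the values were seen. IL6, an inflammatory cytokine (chr7:22727200-22731998), had 365 and 368 normalized reads in siSFPQ-2 libraries, 287 and 293 in siSFPQ-3 libraries, and 27.9 and 32.1 in siCtrl libraries (log2 fold change 3.401 ± 0.14 SE, adjusted p = 9.77e-08). CXCL8, a neutrophil chemokine, averaged 4276 ± 841 in siSFPQ libraries (SD, n = 4) and 1816 ± 105 in siCtrl libraries (SD, n = 2), a log2 fold change of 1.22. CXCL1 rose by 0.68, whereas CXCL6 (-0.17 on the log2 scale, adjusted p = 0.224) did not pass. Of 6 tested members named CXCL or IL, 4 rose and 0 fell, and of 13 other expressed ones 11 rose. Among IFIT and IFITM members, IFITM1, IFITM2, IFITM3 and IFIT2 rose and IFIT5 fell by 0.83, whereas of 3 other IFIT and IFITM genes 1 rose and 2 fell. Of all features, 24.8% rose and 23.2% fell. Without siCtrl replicate 1, and again without siCtrl replicate 2, 2 of these 5 rose and 1 fell.

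The largest rises among members were led by genes with almost no reads in siCtrl libraries. LPAR6, a lysophosphatidic acid receptor gene, had 47.2 and 68.7 normalized reads in siSFPQ-2 libraries, 51.6 and 78.0 in siSFPQ-3 libraries, and 0 in both siCtrl libraries; against a floor of 3 reads per siCtrl library it was at least 21.5-fold higher. PRSS22 had 80 recovered reads over the siSFPQ libraries and 1 over the siCtrl libraries (ratio per normalized read 43.8, 95% exact counting interval 7.64 to 1751), and RCC2P7 had 153 over the siSFPQ libraries and 3 over the siCtrl libraries (27.9, interval 9.37 to 137). CFB, a complement factor gene, had 66.0 and 110 normalized reads in siSFPQ-2 libraries, 72.1 and 191 in siSFPQ-3 libraries, and 2.39 and 3.32 in siCtrl libraries. NR5A2, a nuclear receptor gene of 150 kb, averaged 3944 ± 786 in siSFPQ libraries (SD, n = 4) and 348 ± 74.3 in siCtrl libraries (SD, n = 2), a log2 fold change of 3.49. IQSEC3-AS1, FREM1, KRTAP3-1 and DLGAP1-AS2 rose by 4.48, 3.84, 3.82 and 3.51. In each of these genes the 4 siSFPQ libraries were above both siCtrl libraries, as the rule for naming them required. B was averaged over all libraries, most of them siSFPQ. A gene with signal almost only in siSFPQ libraries therefore became a member more easily than one with signal almost only in siCtrl libraries. The floor and the intervals pool the libraries and cover counting error only, whereas replicates differed beyond sampling noise.

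The largest falls included muscle and antisense genes. HRCT1 had 30.3 and 7.75 normalized reads in siSFPQ-2 libraries, 20.4 and 8.10 in siSFPQ-3 libraries, and 143 and 138 in siCtrl libraries (log2 fold change -3.22 ± 0.48 SE, adjusted p = 0.000354). ID2-AS1, a transcript named for its position beside ID2, had 161 and 49.8 in siSFPQ-2 libraries, 139 and 40.5 in siSFPQ-3 libraries, and 646 and 613 in siCtrl libraries (-2.92). In both genes replicate 2 of each siRNA was the lower library. CRMA, TNNT3, KBTBD11-AS1, POU5F1B, UICLM, SCNN1D, KRT223P and TNNI2 fell by 2.39, 2.39, 2.36, 2.34, 2.30, 2.30, 2.28 and 2.22. TNNT3 and TNNI2 encode subunits of fast skeletal muscle troponin.

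Keratin genes, which encode filaments of epithelial cells, went both ways. KRT28 had 922 and 651 normalized reads in siSFPQ-2 libraries, 873 and 434 in siSFPQ-3 libraries, and 1772 and 2094 in siCtrl libraries, a log2 fold change of -1.48 (adjusted p = 0.000504), with P/B of 0.042. KRT25 fell by 1.89. KRT18 had 110 and 105 in siSFPQ-2 libraries, 145 and 158 in siSFPQ-3 libraries, and 11.95 and 13.3 in siCtrl libraries, a log2 fold change of 3.24. COL1A1, a chain of type I collagen, rose by 1.16, and COL17A1 (-0.0077 on the log2 scale, adjusted p = 0.955) did not pass.

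Among the members of other groups, 10 of 22 HOX genes fell and 2 rose (median -0.33), while 4 fell and 0 rose without siCtrl replicate 1, and 5 fell and 1 rose without siCtrl replicate 2. HOXB2, HOXB6 and HOXB8 did not pass the threshold, with log2 fold changes of -0.07, 0.02 and -0.28. HOXA-AS2 fell by 0.81 and HOXB-AS1 by 0.88. Of 8 other expressed HOX genes, 5 fell and 0 rose (median -0.50). Of 183 antisense members 27 rose and 58 fell, of 105 LINC members 22 rose and 50 fell, and of 70 divergent transcripts (named -DT) 4 rose and 17 fell, against 24.8% of all features rising and 23.2% falling. Among the other expressed genes, 36.7% of antisense, 36.6% of LINC and 38.0% of divergent transcripts fell. Of 411 processed pseudogene members tested, 75 rose (18.2%) and 52 fell (12.7%), and of 105 other processed pseudogenes 8 rose and 23 fell. Without siCtrl replicate 1 or 2, the antisense members that fell were 27 and 38, the LINC members 28 and 30, the divergent members 9 and 13, and the processed pseudogenes 14 and 18.

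Of 42 nuclear copies of mitochondrial genes tested among the members, 22 rose (52.4%) and 0 fell, against 24.8% and 23.2% of all features. Of 4 other copies, 2 rose. MTND2P28 had 34875 and 25637 normalized reads in siSFPQ-2 libraries, 33318 and 27792 in siSFPQ-3 libraries, and 24818 and 14206 in siCtrl libraries. All siSFPQ libraries were above both siCtrl libraries, and siCtrl replicate 2 was well below siCtrl replicate 1. Without siCtrl replicate 2, 5 members rose and 3 fell. Long members were few, and the 5 over 100 kb with the highest B, named after their values were seen, included AAK1, a kinase gene of 186 kb. AAK1 had 2039 and 2085 normalized reads in siSFPQ-2 libraries, 1934 and 1987 in siSFPQ-3 libraries, and 1208 and 1008 in siCtrl libraries. SOX2-OT, which overlaps SOX2, fell by 0.77.

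The ratio P/B itself passed the threshold in few members. Tested on log2 ratios with 1 added to each window, 61 of 3529 members passed (1.73%), 43 higher and 18 lower, against 10.5% of all genes with B of 5 or more (1.02% higher and 9.44% lower). With siSFPQ-2 alone 8 members passed, against 1.09% of all genes, and with siSFPQ-3 alone 42, against 10.4%. Among the other expressed genes 128 were higher and 1571 lower (12.8%). These calls rested on both siCtrl libraries: over all 16835 genes, 11 were higher and 3 lower without siCtrl replicate 1, and 0 passed by limma without siCtrl replicate 2. The median log2 change was 0.02 in members and -0.26 in the other expressed genes, and 48.5% of members and 71.1% of the other expressed genes had a lower ratio in siSFPQ libraries. In the other expressed genes the median change of P was -0.22 and that of B 0.04, whereas in members they were 0.00 and -0.07. The rule fixed a low P/B in members, so the counts in the 2 groups are set side by side with no test. The quartiles of the log2 change were -0.54 and 0.60 in members, and -0.57 and 0.06 in the other expressed genes. These estimates include the spread between libraries, so neither they nor the few calls measure how large the changes in members were. Whether the low P of members (median 10.7, against 518 in the other expressed genes) limited their calls was not tested. In LIF, a cytokine gene, P/B rose by 5.23 on the log2 scale, and in MOBP it fell by 4.31. Likewise, no member passed by limma without siCtrl replicate 1 (384 at an unadjusted p under 0.05) or without siCtrl replicate 2 (260 at an unadjusted p under 0.05). The median change was then 0.09 and -0.08 in members, so its sign depended on the siCtrl library kept. With bin101 to bin110 as the promoter window and B from bin111, the change in LIF was 0.63 with an adjusted p of 0.166.

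**Figure D5:**
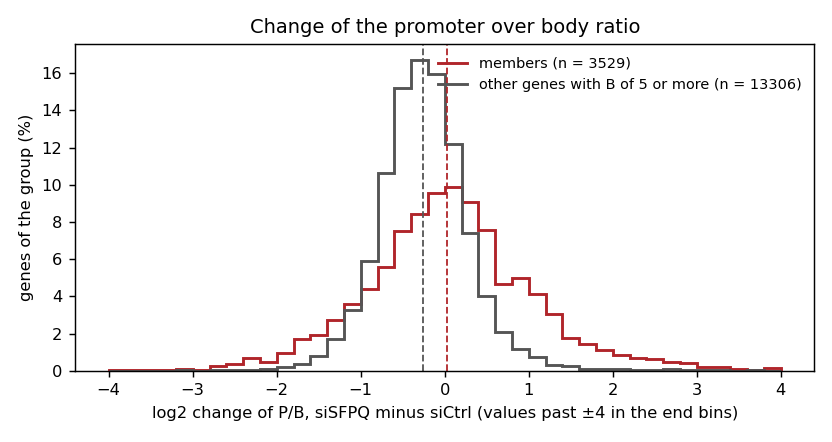
Log2 change of P/B, siSFPQ minus siCtrl (x axis), as a percentage of genes in each group (y axis), with dashed lines at the medians. Members centre on 0.02 and the other expressed genes on -0.26.

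The shape of the signal within and past the gene passed in members at a share near that of all genes. The ratio of late to early body signal passed in 58 members (1.64%, against 1.41% of all genes with B of 5 or more), with 35 higher and 23 lower, against 0.903% and 0.505%. The ratio of signal past the end to the body passed in 12 (0.34%, against 0.333%), with 5 higher and 7 lower, against 0.16% and 0.172%. Among those named, the late to early ratio fell in MIAT, MEF2C and DLL3, and the ratio past the end rose in PTPRR and fell in ICAM4. For the late to early ratio no member passed by limma when any 1 library was left out (641 to 828 at an unadjusted p under 0.05), and for the ratio past the end at most 1 did. Over all 16835 genes the counts were then also 0 for the late to early ratio and at most 1 for the ratio past the end.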

How the data were processed

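The submitters' processing notes name hg38 and dm6 as builds, and DESeq2 1.38.1, SAMtools 1.3.1, Bowtie2, cutadapt 1.14 and UMI-tools as software. What each was used for, the annotation, bin sizes and strand use were not given in these sources. The authors deposited a table of normalized reads per feature and, per library, signal in 500 bins per gene in 3 files; the scaling of the profiles between libraries is not given. All values in the table were whole multiples of 1 read (100% at a tolerance of 0.1 read), with 12072813 to 18475158 reads per library. Intervals and floors cover counting error only.

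The 3 files per library were joined, 17 genes in more than 1 file and 2 repeated rows were dropped, and bins were averaged over libraries. Features with at least 10 normalized reads in at least 2 libraries entered limma 3.58.1 (trend) in R 4.3.3 on the log2(value + 1) scale, as 1 fit of 3 groups; ratios were fitted likewise over genes with B of 5 or more. The edgeR 4.0.16 quasi-likelihood test, which called 1356 members, and DESeq2 1.42.0, which called 1104, were run on the recovered reads as alternatives. Fits were tested on simulated data. Replicates differed beyond sampling noise (chi-square per degree of freedom 10.7 to 23.6). Symbols matched RefSeq for 1889 members directly and 17 by synonym.

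Named members with a symbol that is no clone name were the 10 highest B, the 10 lowest P/B, 5 on each side of the threshold, up to 3 per gene class by B, the 10 largest rises and falls, up to 5 per ratio and direction, and 3 per direction between siRNAs. Not all are printed, and some items are not reported here. The members and lists were chosen with earlier results of these data known.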

Additional observations from a re-analysis of the deposited data

Results flagged for a closer look

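INPP4B differed between the siRNAs, which singled it out: its log2 fold change of siSFPQ-3 over siSFPQ-2 was 0.81 (limma adjusted p = 0.0477), with the 2 siSFPQ-3 libraries above the 2 siSFPQ-2 libraries. Against siCtrl it rose by 3.32 with siSFPQ-3 and by 2.51 with siSFPQ-2.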

How the results depend on the processing

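Of 3529 members, P/B of 1 or less left 1934, B of 1 or more gave 7835 and B of 20 or more 1261; leaving out 1 library gave 3449 to 3571. For normalized reads, leaving out 1 library gave 816 to 1373 called members for siSFPQ against siCtrl (1337 in all), 599 to 1198 for siSFPQ-2, 738 to 1256 for siSFPQ-3, and 0 to 37 for siSFPQ-3 against siSFPQ-2. The last count was 1, and was 0 with a pseudocount of 0.1, a filter of 50 or libraries scaled to 1 total, 2 with a pseudocount of 5, 4 with edgeR and 23 with DESeq2. For P/B, leaving out 1 library gave 0 to 60 called members for siSFPQ (61), 0 to 0 for siSFPQ-2 (8) and 0 to 52 for siSFPQ-3 (42). The pseudocount of 0.1 gave 23 for siSFPQ-2 and 74 for siSFPQ-3, and that of 5 gave 5 for siSFPQ-2. Fitting genes with B of 1 or more gave 25 for siSFPQ, 0 for siSFPQ-2 and 15 for siSFPQ-3, and B of 20 or more gave 21 for siSFPQ-2. A promoter window of bin101 to bin110 with B from bin111 gave 115 for siSFPQ and 99 for siSFPQ-3. The late to early ratio (58) gave 15, 170, 0 and 114 with a pseudocount of 0.1, a pseudocount of 5, B of 1 or more and B of 20 or more, and 0 to 0 without 1 library. The ratio past the end (12) gave 6, 121, 0 and 41 in the same order, and 0 to 1 without 1 library. The cause of these moves was not tested.

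The labels do not say that replicate numbers mark a shared batch, and libraries were not treated as paired. The correlation of deviations of same-numbered libraries was 0.053 between siSFPQ-2 and siCtrl, 0.059 between siSFPQ-3 and siCtrl, and 0.38 between siSFPQ-3 and siSFPQ-2. With the replicate block, reads called 1533 members for siSFPQ, 1300 for siSFPQ-2, 1440 for siSFPQ-3 and 69 between siRNAs, P/B called 39, 0 and 25 for siSFPQ, siSFPQ-2 and siSFPQ-3, the late to early ratio 0 and the ratio past the end 7. Over 146 named results, 1939 alternatives gave 259 lost calls, 23 gained calls and 0 changes of sign. Alternatives chosen after seeing the data were B as a median (2960 members), members low also against the median body bin (1085 called) and members without pseudogenes (1145 called).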
